A study of Mus musculus with 28 samples.

Results

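Luminal epithelial cells and stromal cells that both carried tdTomato were compared within untreated mice. The comparison rests on 8 RNA-seq libraries of the 28 in the series, 1 luminal and 1 stromal library from each of 4 mice, chosen by the lineage, reporter and treatment that the sample labels give. The mice were adult C57BL/6 females carrying Pdgfra-Cre and R26mTmG, a reporter in which membrane tdTomato is replaced for good by membrane GFP wherever Cre has acted. The Cre follows the Pdgfra promoter and needs no inducer, so a tdTomato+ cell is one without a recombination history under that promoter, whatever its Pdgfra level when it was sorted. Cells marked by CD31, CD45 or Ter119 had been gated away, luminal cells were taken as EpCAM-positive with low CD49f, and stroma as negative for both. The same 4 mice gave GFP+ luminal and GFP+ stromal libraries, in which Cre had acted, and 3 other mice gave the same fractions after treatment with estradiol and progesterone, written E+P here. The labels give no age for the sequenced mice. The question was which genes separate tdTomato+ luminal cells from tdTomato+ stroma. It was also asked which genes separate the 2 layers by the same amount after E+P or in the GFP+ fractions, and which do not.

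The luminal layer lines the mammary ducts. It holds hormone-sensing cells, which carry receptors for oestrogen, progesterone and prolactin, and secretory progenitors, which turn to milk production in pregnancy. Around the ducts lie fibroblasts, fat, nerves and vessels, and the vessels are wrapped by pericytes and smooth muscle, contractile cells that share actin-binding proteins and potassium channels.

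The luminal libraries held 16587253, 15130601, 12199964 and 22643378 counts in mice 1 to 4, and the stromal libraries held 12035953, 11790445, 16079666 and 10231034. Levels below are CPM, counts scaled to a common library size after TMM scaling. TMM gives each library 1 factor, on the assumption that most genes do not differ between libraries. A count of 3, the floor used for genes without any count in a group, stood for 0.116 to 0.291 CPM in single libraries, and floors and counting intervals cover counting error alone. Across 15754 genes, the log2 levels of luminal libraries correlated with each other at r of 0.957 to 0.971, those of stromal libraries at 0.921 to 0.947, and luminal with stromal libraries at 0.525 to 0.682. Genes are not independent replicates, so these r describe the libraries and carry no test.

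Some libraries stood apart from their group. The luminal epithelial list (17 genes, among them keratins 7, 8, 18 and 19) summed to 9462, 9652, 9693 and 9033 CPM in the luminal libraries of mice 1 to 4 and to 129, 430.4, 677 and 37.5 CPM in the stromal ones. The stromal libraries of mice 2 and 3 thus held 4.55% and 7.16% of the mean luminal sum, against 1.36% and 0.396% in mice 1 and 4. In the other direction, the luminal library of mouse 3 stood above the other luminal libraries in stromal genes. The fibroblast list summed to 22.8, 11.3, 79.9 and 11.8 CPM in the luminal libraries, the skeletal muscle fibre list to 19.6, 10.3, 99.2 and 20.9 CPM and the satellite cell list to 0.619, 1.28, 8.67 and 1.78 CPM. The 3 sums of mouse 3 came to 1.79%, 0.690% and 1.53% of the mean stromal sums. Results were therefore also computed without the stromal libraries of mice 2 and 3 and without the luminal library of mouse 3, in each case without the pairing, and these values are given where they bear on a statement. RNA of 1 fraction in a library of the other lowers a fold change between the fractions, and its part in single results was not tested.

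**Figure D1:**
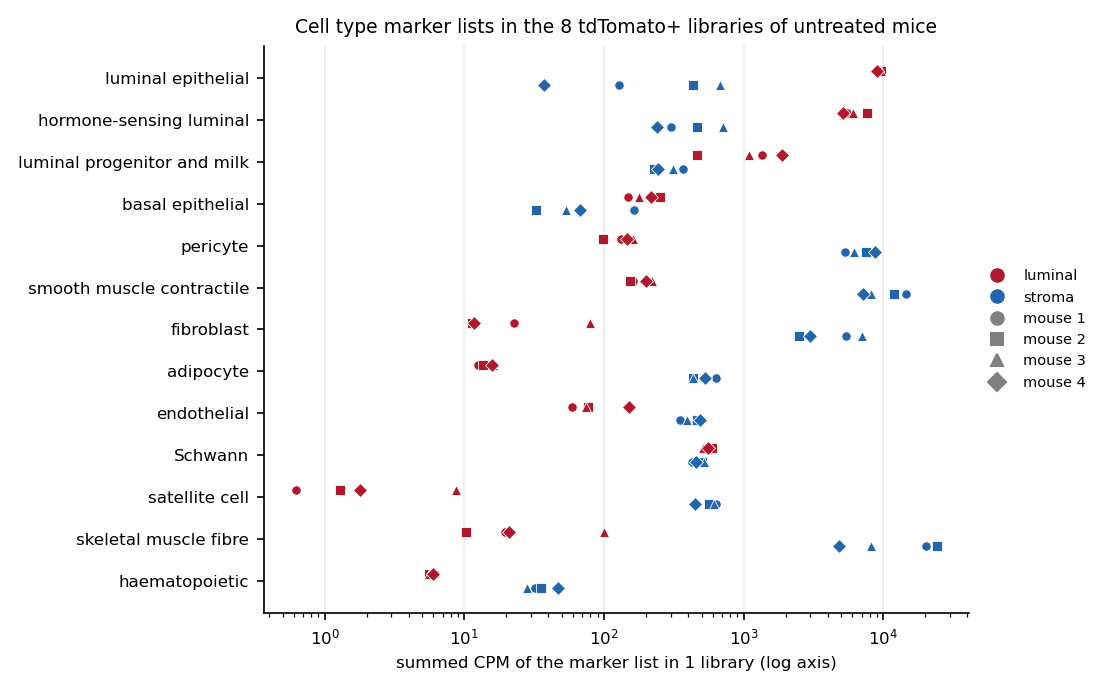
Summed CPM of 13 cell type marker lists (log axis) in the 4 luminal (red) and 4 stromal (blue) tdTomato+ libraries of untreated mice, with 1 symbol for each mouse. The luminal and stromal points share a range in the basal epithelial and Schwann lists and are apart in the other 11, least in the progenitor and milk list, where luminal points start at 463 CPM and stromal points end at 365 CPM.

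With edgeR's quasi-likelihood test, blocked by mouse, 5584 of 15754 genes tested (35.4%) had a Benjamini-Hochberg adjusted p under 0.01; such genes are named called. Of these, 2244 were higher in luminal cells (14.2% of the genes tested) and 3340 higher in stroma (21.2%). Called genes higher in stroma differed by a median log2 fold change of -3.14, and 1202 of them by more than 5, against a median of 1.91 and 218 genes in the luminal direction. Fold changes are written below as log2 values, luminal minus stroma, ± standard error, and the median over all genes tested was -0.02. The scaling sets this balance: with library sizes alone the median was 0.32, a shift of all genes toward luminal, and 3545 genes were called higher in luminal cells against 2661 in stroma, 57.1% of the calls in place of 40.2%. Leaving out 1 mouse left 3332 calls without mouse 1, 3664 without mouse 2, 3871 without mouse 3 and 4316 without mouse 4, and 2776 genes (49.7% of the 5584) were called in all 4 of these fits. Each adjusted p that passed 0.01 without a mouse is given below. Without the low-count filter 31705 genes were tested and 4997 of the 5584 (89.5%) kept their call, while several lists below lost a larger share of theirs. In bulk libraries, fewer cells of a type and less RNA per cell cannot be told apart.

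Keratins and E-cadherin, by which luminal cells are known, served as the check of the label. Krt18, the acidic keratin of simple epithelia, was at 2111, 2424, 2362 and 2112 CPM in the luminal libraries of mice 1 to 4 and at 30.7, 85.4, 139 and 5.15 CPM in the stromal ones. Its partner Krt8, the basic keratin of the pair, was at 1938, 1843, 2005 and 1691 CPM against 17.9, 80.2, 127 and 7.19 CPM. The 2 genes lie on chromosome 15 of GRCm38, Krt8 from 101996698 to 102004482 and Krt18 from 102028180 to 102032027. Luminal levels were alike in the 4 mice, the stromal levels ranged more than 10-fold with mice 2 and 3 on top, and the groups did not overlap. The fits gave log2 5.72 ± 0.89, adjusted p 0.00408 for Krt18 and log2 5.67 ± 0.84, adjusted p 0.00345 for Krt8. Per kilobase of exon, Krt18 stood at 1567 CPM and Krt8 at 955 CPM in luminal cells, the first being the highest of the list on that scale. Krt19, a keratin without a tail domain (log2 5.88 ± 1.04, adjusted p 0.00640), and Cdh1, the adhesion protein E-cadherin (log2 5.76 ± 0.99, adjusted p 0.00575), followed. All 17 of the 17 luminal epithelial genes were called higher in luminal cells (14.2% over all genes), with a list median of 5.37. Without the low-count filter only 3 were, at a median of 5.47. Without mouse 1, 4 were called, and without mouse 2, 3, while the medians were 5.01 and 5.82. The 4 genes named were among those lost in all 3 fits: Krt18 had adjusted p of 0.0213 without mouse 1 and 0.0229 without mouse 2, and Krt8 of 0.0165 without mouse 1 and 0.0169 without mouse 2. Krt19 had 0.0282 without mouse 1 and 0.0279 without mouse 2, and Cdh1 0.0259 without mouse 1 and 0.0234 without mouse 2. Without the stromal libraries of mice 2 and 3 and without the mouse block the list median was 6.97 and 16 genes were called, against 4.95 and 17 without the block alone.

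Hormone receptor genes had large differences with a wide spread in stroma. Prlr, the prolactin receptor, was at 2706, 3558, 3025 and 2479 CPM in the luminal and 31.3, 146, 211 and 0.486 CPM in the stromal libraries. The groups were at least 10-fold apart, yet the stromal values spanned 0.486 to 211 CPM and Prlr was not called (log2 5.94 ± 1.48, adjusted p 0.0207). Without the stromal libraries of mice 2 and 3 and without the mouse block the log2 fold change was 7.53 and the adjusted p 0.00681; without the block alone they were 4.87 and 0.0106. Pgr, the progesterone receptor, was at 331, 691, 617 and 302 against 4.46, 28.2, 54.8 and 0.583 CPM (log2 5.40 ± 0.93, adjusted p 0.00581; 0.0279 without mouse 1 and 0.0310 without mouse 2). Gata3, a transcription factor that luminal cells need to keep their identity, was at 389.8, 554, 329 and 489 against 5.13, 11.7, 27.7 and 2.04 CPM (log2 5.67 ± 0.78, adjusted p 0.00261; 0.0151 without mouse 1 and 0.0220 without mouse 2). Both genes followed the keratins in the stroma, with the highest values in mouse 3 and the lowest in mouse 4. Stc2, a secreted glycoprotein, was at 468, 803, 456 and 326 against 26.3, 29.2, 36.7 and 4.66 CPM (log2 4.56 ± 0.44, adjusted p 6.02e-04) and kept its call without each mouse in turn. Of 15 hormone-sensing genes, 14 had enough counts to be tested, 9 were called higher in luminal cells and 0 in stroma (14.2% and 21.2% over all genes), with a median of 4.91. The count was 4 without mouse 1, 5 without mouse 2 and 5 without the low-count filter.

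The genes of secretory progenitors varied between mice within the luminal group. Kit, a receptor for stem cell factor found on luminal progenitors, was at 183, 75.5, 199.9 and 279.6 CPM in luminal cells and 6.55, 19.9, 19.4 and 11.9 CPM in stroma. Aldh1a3, which makes retinoic acid, was at 236, 54.8, 115 and 249 against 22.0, 5.23, 16.8 and 3.40 CPM. Mouse 2 had the lowest luminal value of both genes and mouse 4 the highest, and no stromal value reached the luminal range. Kit had log2 3.59 ± 0.56, adjusted p 0.00403 (0.0144 without mouse 1 and 0.0145 without mouse 4). Aldh1a3 had log2 3.76 ± 0.60, adjusted p 0.00445 (0.0193 without mouse 1 and 0.0278 without mouse 2). Ltf, the iron-binding milk protein lactoferrin, was at 202, 38.8, 120.2 and 249 against 0.855, 0, 7.90 and 0.291 CPM. Its fold change (log2 6.78 ± 1.09, adjusted p 0.00453; 0.0228 without mouse 1, 0.0275 without mouse 2 and 0.0118 without mouse 4) was the highest of the called genes named here. Btn1a1, a protein of the milk fat globule membrane, was at 20.2, 12.7, 19.0 and 89.5 against 0, 0, 1.13 and 0.388 CPM (log2 6.27 ± 0.87, adjusted p 0.00220; 0.0106 without mouse 1 and 0.0116 without mouse 2), with mouse 4 far above the other luminal libraries. Mfge8, a lipid-binding protein of milk fat globules that other cells make too, did not follow. It was at 349, 115, 292 and 486 CPM in luminal cells and 286, 187, 217 and 186 CPM in stroma, the ranges overlapped, and it was not called (log2 0.28 ± 0.32, adjusted p 0.486). Of the 15 progenitor and milk genes, 9 of the 12 tested were called, all toward luminal (14.2% over all genes; median 3.56; 5 called without mouse 1, 5 without mouse 2 and 5 without the low-count filter), and Wap, a whey protein of late pregnancy, had no count in any of the 8 libraries.

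The next genes were among the 10 picked for the largest luminal excess. Hp, the haemoglobin-binding protein haptoglobin, was at 23.2, 42.3, 32.7 and 25.0 CPM in luminal cells and 0.0950, 0.181, 0.863 and 0 CPM in stroma (log2 6.72 ± 0.61, adjusted p 2.67e-04). R3hdml, a secreted protein of the cysteine-rich CAP family, was at 18.8, 19.5, 22.0 and 7.64 CPM against 0 CPM in 3 stromal libraries and 0.996 CPM in mouse 3 (log2 6.33 ± 0.89, adjusted p 0.00175). These 2 genes kept their calls without each mouse, as did Rnf208, a ring-finger protein (log2 6.23, adjusted p 5.28e-04), Ttll10, an enzyme that adds glycines to proteins (log2 6.14, adjusted p 8.93e-04), and Atp6v1b1, a subunit of the proton pump (log2 6.02, adjusted p 4.59e-04). Fcgbp, a mucus-associated protein, was at 735, 103, 588 and 2115 CPM in luminal and 6.08, 0.903, 26.1 and 7.57 CPM in stromal libraries (log2 6.52 ± 0.72, adjusted p 0.00123; 0.0127 without mouse 2). Dmbt1, a scavenger receptor that binds bacteria, was at 926, 1637, 838 and 148 against 7.88, 33.8, 14.8 and 0 CPM (log2 6.52 ± 0.79, adjusted p 0.00170; 0.0120 without mouse 1 and 0.0114 without mouse 2). Fcgbp was highest in mouse 4 and lowest in mouse 2, Dmbt1 the reverse, and for both the lowest luminal value lay above the highest stromal value. Fgb, the fibrinogen beta chain, was at 100.5, 62.1, 154 and 218 against 1.14, 0.542, 5.57 and 0 CPM (log2 6.49 ± 0.91, adjusted p 0.00272; 0.0152 without mouse 1 and 0.0227 without mouse 2).

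Cell junctions separated the fractions almost gene for gene. Of 24 genes of tight junctions, adherens junctions and desmosomes, 23 were called higher in luminal cells and 0 in stroma (14.2% and 21.2% over all genes; median 4.69); the exception was Dsc2, a desmosomal cadherin (log2 3.28, adjusted p 0.0144). The count was 14 without mouse 1, 15 without mouse 2 and 15 without the low-count filter. Dsp, the plaque protein that ties desmosomes to keratin, was at 773, 708, 648 and 639 CPM in luminal and 12.8, 35.1, 53.1 and 4.47 CPM in stromal libraries (log2 5.12 ± 0.70, adjusted p 0.00253; 0.0139 without mouse 1 and 0.0157 without mouse 2). Cldn4, a sealing claudin of tight junctions, was at 456, 437, 414 and 332 against 2.09, 25.2, 24.4 and 0.194 CPM and only just called (log2 5.90 ± 1.19, adjusted p 0.00998; 0.0364 without mouse 1, 0.0303 without mouse 2 and 0.0123 without mouse 4). Both genes were highest in the stroma of mice 2 and 3, and Cldn4 was at 0.194 CPM in the stroma of mouse 4. Jup, plakoglobin, which serves desmosomes and adherens junctions alike, differed less, at 268, 221, 239 and 276 against 44.2, 61.1, 51.4 and 39.6 CPM (log2 2.30 ± 0.18, adjusted p 1.53e-04). Tjp1, the scaffold ZO-1, was present in both fractions at 277, 307, 299 and 297 against 174, 162, 216 and 146 CPM, without overlap (log2 0.70 ± 0.13, adjusted p 0.00442; 0.0189 without mouse 1, 0.0223 without mouse 2 and 0.0172 without mouse 4).

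On the stromal side, pericyte genes stood out. Rgs5, a regulator of G-protein signalling that marks pericytes, was at 1397, 2407, 1687 and 2924 CPM in stroma and at 0.361, 0.183, 19.2 and 0.969 CPM in luminal cells. Every stromal value lay more than 70-fold above every luminal one, and the only luminal library above 1 CPM was that of mouse 3. The fit gave log2 -10.91 ± 1.59, adjusted p 0.00321 (0.0175 without mouse 1, 0.0201 without mouse 2 and 0.0136 without mouse 4), and a log2 value of -11.98 without that luminal library. Abcc9, the sulphonylurea-binding subunit of a vascular potassium channel, was at 664, 1001, 813 and 1294 CPM in stroma and 0.103, 0.791, 9.03 and 0.271 CPM in luminal cells (log2 -10.14 ± 1.37, adjusted p 0.00246; 0.0121 without mouse 1 and 0.0220 without mouse 2). Procr, the receptor for protein C, was at 817, 1173, 1319 and 1726 against 0.361, 0.365, 12.9 and 0.349 CPM (log2 -10.41 ± 1.35, adjusted p 0.00214; 0.0129 without mouse 1 and 0.0182 without mouse 2) and led the list per kilobase, with 619.7 CPM against 463 CPM for Rgs5. Notch3, the Notch receptor of vascular mural cells, was present in luminal cells as well: 803, 1007, 809 and 687 CPM in stroma against 126, 93.9, 102 and 136 CPM in luminal cells (log2 -2.93 ± 0.20, adjusted p 9.85e-05). All 15 of 15 pericyte genes were called higher in stroma, against 21.2% of all genes tested, with a median of -8.70; 10 were called without mouse 1 and 9 without the low-count filter.

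Smooth muscle genes came next. Myh11, the myosin heavy chain of smooth muscle, was at 5089.7, 3464, 2314 and 1332 CPM in the stroma of mice 1 to 4 and at 2.48, 1.76, 22.3 and 5.08 CPM in luminal cells. The stroma of mouse 1 held almost 4 times the level of mouse 4, and the groups were far apart (log2 -9.21 ± 1.14, adjusted p 0.00182; 0.0121 without mouse 2). Synpo2, an actin-bundling protein of the contractile apparatus, ran otherwise among the mice, at 1287, 2195, 1556 and 2221 CPM in stroma and 0.826, 2.19, 13.5 and 0.582 CPM in luminal cells (log2 -9.89 ± 1.14, adjusted p 0.00146; 0.0148 without mouse 2). Tpm2, beta-tropomyosin, led the list per kilobase (469.8 CPM) and was at 2117, 2015, 802 and 532 against 16.2, 5.96, 15.5 and 5.23 CPM (log2 -7.00 ± 0.56, adjusted p 3.61e-04). Its stromal values were higher in mice 1 and 2 than in mice 3 and 4. So were those of Myh11 and the sums of the skeletal muscle fibre list given below. The part of skeletal muscle RNA in the level of Tpm2 was not tested. Cald1, caldesmon, which binds actin and holds back myosin, was at 1933, 1317, 1200.1 and 1658 against 58.1, 15.5, 61.4 and 99.2 CPM (log2 -5.00 ± 0.48, adjusted p 5.96e-04). Of 14 smooth muscle contractile genes, 12 were called higher in stroma and 0 in luminal cells (21.2% and 14.2% over all genes; median -7.19). The 2 that were not called were Smtn, smoothelin, with 63.9, 116, 66.8 and 52.2 CPM in luminal and 129, 107, 92.5 and 51.5 CPM in stromal libraries (log2 -0.41, adjusted p 0.130), and Itga8, an integrin chain (log2 -2.69, adjusted p 0.0107). The count of called genes was 7 without mouse 2 and 7 without the low-count filter.

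The starts of these genes were read from RefSeq (GRCm38.p6), in the 250 bases before the RefSeq start of each gene, to see whether members that moved together share letters there. The motifs were the CArG box, the site of serum response factor, the E-box CANNTG and the grainyhead (GRHL) motif, each on both strands. The table held 11 of the 14 smooth muscle genes, 10 of the 15 pericyte genes and 9 of the 17 luminal epithelial genes, under 80% of each list, so a comparison of lists is void. Among the genes not in the table were Myh11, Tagln and Actg2 (smooth muscle), Pdgfrb, Higd1b, Ndufa4l2, Cox4i2 and Heyl (pericyte), and Krt19, Cdh1, Cd24a, Ehf, Grhl2, Esrp1 and Esrp2 (luminal). A CArG box stood in 1.47% of all 32851 windows, an E-box in 66.2% and the GRHL motif in 0.116%. Myl9, the regulatory light chain of smooth muscle myosin, was at 373, 269.8, 222 and 133 CPM in stroma and 0.465, 0.365, 1.88 and 0.969 CPM in luminal cells (log2 -8.15 ± 0.65, adjusted p 4.34e-04). Among the windows found for the 3 lists it was the 1 with a CArG box, from 161 to 152 bases before its RefSeq start. Its window (chromosome 2, 156775214 to 156775463, plus strand) is printed for that match, in capitals, beside the windows of Procr (chromosome 2, 155750967 to 155751216, plus strand), Krt8 (chromosome 15, 102004343 to 102004592, minus strand) and Krt18 (chromosome 15, 102027966 to 102028215, plus strand), as genes that lay on opposite sides and in which capitals mark the E-boxes. All run 5′ to 3′ along the gene. RefSeq starts and the GENCODE positions given above for keratins differ, and the windows of Krt8, Krt18 and Procr reach past the GENCODE starts into these genes. A match describes these letters and is no evidence of binding.
Myl9: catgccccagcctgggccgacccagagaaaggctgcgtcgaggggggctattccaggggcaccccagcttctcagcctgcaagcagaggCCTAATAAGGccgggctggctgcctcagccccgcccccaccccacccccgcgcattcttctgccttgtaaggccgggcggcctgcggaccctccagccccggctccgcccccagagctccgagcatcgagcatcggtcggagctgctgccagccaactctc
Procr: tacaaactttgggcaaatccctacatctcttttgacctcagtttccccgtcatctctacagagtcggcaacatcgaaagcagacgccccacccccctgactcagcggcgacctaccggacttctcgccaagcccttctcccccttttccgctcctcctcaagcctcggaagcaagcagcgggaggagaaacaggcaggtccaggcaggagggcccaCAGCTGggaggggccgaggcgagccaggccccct
Krt8: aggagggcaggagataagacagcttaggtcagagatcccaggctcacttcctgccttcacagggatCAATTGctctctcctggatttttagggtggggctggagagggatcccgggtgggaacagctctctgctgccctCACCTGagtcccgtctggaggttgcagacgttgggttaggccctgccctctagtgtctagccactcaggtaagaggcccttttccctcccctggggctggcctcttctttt
Krt18: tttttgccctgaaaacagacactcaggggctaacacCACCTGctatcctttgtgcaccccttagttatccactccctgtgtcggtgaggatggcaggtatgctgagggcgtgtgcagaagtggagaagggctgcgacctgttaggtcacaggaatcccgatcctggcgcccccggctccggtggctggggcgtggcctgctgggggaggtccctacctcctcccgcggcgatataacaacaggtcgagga

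Skeletal muscle genes had high levels in the stromal libraries, although the label names only stroma. The 19 skeletal muscle fibre genes summed to 20140.3, 24300.4, 8201 and 4857 CPM in stroma. Ttn, the giant spring protein of the sarcomere, was at 4608, 6186, 2104 and 1433 CPM against 5.88, 1.83, 25.7 and 8.45 CPM in luminal cells (log2 -8.72 ± 1.22, adjusted p 0.00274; 0.0148 without mouse 1). Per kilobase, Acta1, the actin of skeletal muscle, led with 1364 CPM. Acta1 was at 3409.8, 3484, 973 and 514 CPM in stroma and at 0, 0, 11.2 and 0.116 CPM in luminal cells, where 1 library, that of mouse 3, held nearly all of it. The fit gave log2 -12.15 ± 2.28, adjusted p 0.00771 (0.0268 without mouse 1, 0.0392 without mouse 2 and 0.0283 without mouse 4). Myh4, the myosin of fast fibres, was at 2015, 2815, 1421 and 640.0 against 0, 0, 13.6 and 0.194 CPM (log2 -11.70 ± 2.05, adjusted p 0.00607; 0.0227 without mouse 1, 0.0306 without mouse 2 and 0.0231 without mouse 4). Tnnt3, fast troponin T, was at 1967, 2430.1, 701 and 451 against 0.0516, 0, 6.36 and 0.0388 CPM (log2 -11.83 ± 1.97, adjusted p 0.00508; 0.0224 without mouse 1, 0.0276 without mouse 2 and 0.0194 without mouse 4). Each of the 3 was several times higher in the stroma of mice 1 and 2 than in that of mouse 4. All 19 genes were called higher in stroma (21.2% over all genes; median -9.74), 8 without mouse 1, 10 without mouse 2, 13 without mouse 4 and 6 without the low-count filter, and in luminal libraries 10 to 17 of the 19 had any count. With these genes removed before scaling, 5573 genes were called in place of 5584.

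The 10 genes picked for the largest stromal excess included other muscle genes. Trdn, triadin of the calcium release complex, was at 188, 183, 53.6 and 41.3 CPM in stroma and had 1 count in the luminal group, a ratio of 8773 with a counting interval of 1575 to 346521. Lmod2, which builds sarcomeric actin, had no luminal count and 69.8, 55.3, 18.1 and 16.02 CPM in stroma, at least 1001-fold higher. Cox6a2, the muscle form of a cytochrome oxidase subunit, was at least 960.2-fold higher in stroma, Hspb7, a small heat shock protein of muscle, at least 737-fold, and Tmem182, a membrane protein found in muscle, at least 688-fold. Not all were genes of muscle. Tgtp2, an interferon-induced GTPase, had 23.6, 24.5, 41.9 and 37.4 CPM in stroma and was at least 801-fold higher, and Zfpm2, a cofactor of GATA proteins, had 50.4, 21.5, 34.0 and 21.9 CPM and was at least 804-fold higher. The bounds set 3 counts over the luminal group against the stromal mean. Ccl21a, a chemokine that lymphatic vessels make, had 1 luminal count and a stromal range from 7.04 CPM in mouse 2 to 353 CPM in mouse 1 (ratio 9658, interval 1733 to 381453).

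Satellite cells, the stem cells of skeletal muscle, had their genes in the stroma too. Pax7, their defining transcription factor, was at 147, 143, 102 and 70.0 CPM in stroma and at 0, 0, 0.651 and 0.0775 CPM in luminal cells (log2 -9.55 ± 0.86, adjusted p 6.24e-04). Myf5, a factor that commits cells to muscle, was at 73.6, 58.0, 115 and 79.8 against 0, 0, 0.940 and 0 CPM (log2 -9.06 ± 0.93, adjusted p 9.69e-04). Neither varied among the stromal libraries as much as the fibre genes: Pax7 was highest in mouse 1 and lowest in mouse 4, and Myf5 was highest in mouse 3. Fgfr4, a receptor for fibroblast growth factors, was at 152, 127, 94.1 and 70.4 against 0, 0, 1.01 and 0 CPM (log2 -9.27 ± 1.08, adjusted p 0.00149; 0.0124 without mouse 2). Chrdl2, a secreted inhibitor of bone morphogenetic proteins, was at 95.9, 54.2, 91.3 and 70.6 against 0.413, 1.03, 2.46 and 1.40 CPM (log2 -6.04 ± 0.45, adjusted p 1.77e-04). All 9 of 9 genes were called higher in stroma (21.2% over all genes); the median was -9.06, or -7.94 with the gene that had no luminal count at its bound, and 6 were called without mouse 2 and 6 without the low-count filter. Without the luminal library of mouse 3 and the block the median was -11.54, against -8.80 without the block alone; for the muscle fibre genes these were -10.91 and -9.37. The part of muscle RNA in the stromal results was not tested.

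Fibroblast genes were present in this stroma too, although it was sorted for the reporter without recombination. The source of these transcripts was not tested. Col3a1, the type III collagen chain, was at 1823, 1199, 2636 and 1106 CPM in stroma and 3.87, 1.03, 29.5 and 0.271 CPM in luminal cells (log2 -9.27 ± 1.16, adjusted p 0.00188; 0.0115 without mouse 1 and 0.0166 without mouse 2). Dcn, the collagen-binding proteoglycan decorin, was at 621, 176, 857 and 305 against 4.59, 3.53, 8.38 and 2.37 CPM (log2 -6.68 ± 0.31, adjusted p 4.80e-05). Mice 1 and 3 had the higher stromal values of both genes and mice 2 and 4 the lower. Col1a1 (log2 -8.74, adjusted p 9.80e-04; 0.0101 without mouse 2) and Col1a2 (log2 -8.42, adjusted p 9.31e-04), the chains of type I collagen, had the same order of mice. Of 15 fibroblast genes, 14 were called higher in stroma (21.2% over all genes; median -8.01; 10 without the low-count filter), and Dpp4, a surface peptidase of some fibroblasts, was not (log2 -2.91, adjusted p 0.0298). The median was -9.17 without the luminal library of mouse 3 and the block, and -7.47 without the block alone. The list summed to 5434, 2474, 6998 and 2983 CPM here, while in the GFP+ stroma of the same mice it summed to 49488, 35555, 64198 and 37225 CPM.

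State factors split by lineage. Vim, the intermediate filament of mesenchymal cells, was at 1055, 1121, 1421 and 994 CPM in stroma and 1.86, 0.973, 10.3 and 1.98 CPM in luminal cells (log2 -8.87 ± 0.67, adjusted p 3.51e-04). Zeb2, a repressor of E-cadherin, was at 864, 761, 630.2 and 1034 against 0.413, 0, 6.79 and 0.543 CPM (log2 -10.13 ± 1.40, adjusted p 0.00263; 0.0154 without mouse 1, 0.0140 without mouse 2 and 0.0108 without mouse 4). Prrx1, a homeobox factor of mesenchyme, was at 353, 355, 392 and 427 against 0, 0, 4.26 and 0.116 CPM (log2 -9.96 ± 1.41, adjusted p 0.00287; 0.0130 without mouse 1 and 0.0196 without mouse 2). For all 3 genes the luminal library of mouse 3 was the highest of its group and still below every stromal library. Tcf4, a partner of basic helix-loop-helix factors, was shared more evenly, at 327, 418, 333 and 419.9 against 103, 125, 106 and 63.5 CPM (log2 -2.01 ± 0.23, adjusted p 5.47e-04). On the epithelial side stood Klf5, a Krüppel-like factor of epithelia, at 114, 133, 132 and 102 CPM in luminal and 7.79, 16.4, 31.2 and 16.4 CPM in stromal libraries (log2 2.81 ± 0.30, adjusted p 4.80e-04). So did Grhl1, a grainyhead factor that acts on junction genes (log2 3.83, adjusted p 7.30e-04), and Ovol1, a repressor of mesenchymal genes (log2 5.15, adjusted p 0.00113). Of the 21 state factors, 19 were tested, 13 were called higher in stroma and 5 in luminal cells (21.2% and 14.2% over all genes; median -7.56), and the luminal calls were 3 without mouse 1 and 3 without mouse 2. With library sizes alone, none of the called factors changed direction.

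Vessel, blood, fat and nerve genes differed in how far they went. Esam, an adhesion molecule of endothelium and mural cells, was at 83.3, 103, 86.5 and 111.4 CPM in stroma and 0.103, 0.426, 0.651 and 0.310 CPM in luminal cells (log2 -8.16 ± 0.38, adjusted p 4.80e-05). Flt1, a receptor for VEGF, was at 41.3, 136, 119 and 136 against 3.66, 4.87, 3.98 and 1.59 CPM (log2 -4.95 ± 0.53, adjusted p 9.52e-04). Eng, a co-receptor for TGF-beta, was at 50.5, 94.9, 87.7 and 93.4 against 24.2, 34.4, 22.0 and 13.9 CPM (log2 -1.88 ± 0.30, adjusted p 0.00220; 0.0127 without mouse 3). Vwf, the clotting factor that marks endothelium, went the other way without being called, at 28.7, 33.9, 43.4 and 129 CPM in luminal cells and 11.4, 22.8, 13.7 and 10.5 CPM in stroma (log2 1.69 ± 0.50, adjusted p 0.0351). Of 13 endothelial genes, 12 were tested, and 9 were called higher in stroma and 0 in luminal cells (21.2% and 14.2% over all genes; median -5.34); Pecam1, which encodes the gated CD31, was at 18.6, 23.1, 6.50 and 19.7 CPM in stroma (log2 -3.34, adjusted p 2.27e-04). For haematopoietic cells, the sums were 31.8, 35.4, 28.1 and 46.9 CPM in stroma and 6.19, 5.60, 5.57 and 5.93 CPM in luminal cells over 15 genes. Of these, 5 had enough counts for a test and 2 were called higher in stroma (21.2% over all genes), 0 without mouse 1. Ptprc, which encodes the gated CD45, was at 10.8, 16.2, 6.24 and 18.9 CPM in stroma (log2 -6.36 ± 0.93, adjusted p 0.00202; 0.0142 without mouse 1 and 0.0119 without mouse 2), and Lyz2, the lysozyme of macrophages, at 7.50, 9.48, 8.36 and 6.89 CPM (log2 -5.80 ± 0.85, adjusted p 0.00157; 0.0111 without mouse 1). Cd68, a lysosomal protein, was present in both fractions (log2 -0.48, adjusted p 0.343). Laptm5, a lysosomal protein of blood cells, was under the count filter, and Adgre1, a macrophage receptor, had no count in the 8 libraries.

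Among 10 adipocyte genes, 5 were tested and 4 were called higher in stroma (21.2% over all genes; median -6.47). Fabp4, a fatty acid carrier, was at 276, 124.1, 129 and 182 CPM in stroma and 0.671, 0.0608, 1.59 and 0.814 CPM in luminal cells (log2 -8.00 ± 0.64, adjusted p 4.25e-04). Cd36, a fatty acid receptor (log2 -7.29, adjusted p 2.25e-04), Lpl, which releases fatty acids from lipoproteins (log2 -6.47, adjusted p 5.16e-05), and Pparg, the nuclear receptor of fat cells (log2 -3.42, adjusted p 5.55e-04), went the same way, and Adipoq, which fat cells secrete, had 19 counts in the stromal and 1 in the luminal group. Schwann cell genes went both ways. Pmp22, a myelin membrane protein with wider expression, was at 134, 185, 167.4 and 209 CPM in stroma and 1.08, 1.10, 2.60 and 2.87 CPM in luminal cells (log2 -6.66 ± 0.29, adjusted p 4.80e-05). Scn7a, a sodium channel (log2 -7.64, adjusted p 0.00104), and Ncam1, a neural adhesion molecule (log2 -4.86, adjusted p 6.64e-04), lay on the same side. Sox10, a transcription factor of Schwann cells that luminal progenitors share, was higher in luminal cells, at 40.7, 20.0, 41.8 and 62.3 against 4.56, 2.08, 6.37 and 1.65 CPM (log2 3.45 ± 0.42, adjusted p 7.86e-04). So were Mbp, myelin basic protein (log2 3.28, adjusted p 1.14e-04), and Erbb3, a neuregulin receptor (log2 5.19, adjusted p 0.00148; 0.0127 without mouse 2). The list, with 4 of 13 tested genes called toward stroma and 3 toward luminal (21.2% and 14.2% over all genes), had a median of -0.10, which turned to 0.24 with library sizes alone.

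Basal epithelial cells, the contractile outer layer of the duct, were scarce in both fractions. Krt5 was at most 0.651 CPM in a luminal and 1.46 CPM in a stromal library, and Krt14, its partner keratin, at most 3.37 and 4.37 CPM (log2 0.98, adjusted p 0.498). Krt15, a basal keratin, was low but higher in luminal cells, at 5.68, 6.21, 8.38 and 4.30 against 0, 0.451, 1.06 and 0 CPM (log2 4.36 ± 0.85, adjusted p 0.00506; 0.0155 without mouse 1, 0.0159 without mouse 2 and 0.0104 without mouse 4). Dsc3, a desmosomal cadherin, was the 1 gene of the list called higher in stroma, with 134, 1.44, 13.5 and 29.9 CPM in mice 1 to 4 and at most 0.122 CPM in luminal cells (log2 -9.01 ± 1.07, adjusted p 0.00135). Its stromal values were highest in mice 1 and 4, as were those of Ccl21a. Oxtr, the oxytocin receptor of contractile cells, was not called (log2 0.83, adjusted p 0.0858). Of the 9 genes tested, 2 were called higher in luminal cells and 1 in stroma (14.2% and 21.2% over all genes). The list median was 0.83, and 1.17 with library sizes alone. It was 0.23 without the mouse block, 0.00873 without mouse 2, and -9.31e-04 without the stromal libraries of mice 2 and 3 and the block.

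The 2 fractions split the basement membrane between them by chain. The type IV collagen pair Col4a1 and Col4a2 belonged to stroma. Col4a1 was at 1446, 1841, 2298 and 2004 CPM in stroma and 12.2, 3.89, 31.2 and 12.5 CPM in luminal cells (log2 -7.36 ± 0.57, adjusted p 3.40e-04), and Col4a2 followed (log2 -8.01, adjusted p 6.42e-04). The other pair, Col4a5 and Col4a6, went the opposite way: Col4a5 was at 89.4, 105, 91.1 and 67.4 CPM in luminal and 34.5, 34.2, 37.6 and 13.2 CPM in stromal libraries (log2 1.58 ± 0.20, adjusted p 7.98e-04). Col4a6 was at 59.2, 65.7, 65.5 and 40.6 against 14.6, 11.7, 13.0 and 2.43 CPM (log2 2.59 ± 0.33, adjusted p 9.05e-04). Both were lowest in the stroma of mouse 4, and the groups did not overlap. Laminin chains divided too. Lamc1, the gamma chain of most laminins, was at 716, 696, 801 and 544 CPM in stroma and 72.1, 126, 106 and 155 CPM in luminal cells (log2 -2.70 ± 0.25, adjusted p 2.50e-04). Lama5, the alpha chain of laminins found under many epithelia and vessels, was at 683, 941, 966 and 895 CPM in luminal and 404, 569.8, 504 and 227 CPM in stromal libraries. It was called with all mice (log2 1.02 ± 0.22, adjusted p 0.00815) and in none of the fits with 1 left out (0.0242 without mouse 1, 0.0137 without mouse 2, 0.0221 without mouse 3 and 0.0110 without mouse 4). Of 22 basement membrane genes, 15 were called higher in stroma and 4 in luminal cells (21.2% and 14.2% over all genes; median -4.84), and the luminal calls were 2 without mouse 1. With library sizes alone, none of the called chains changed direction.

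Of the receptors for this matrix, 7 of 16 were called in each direction (14.2% luminal and 21.2% stromal over all genes). Their median was 0.12, 0.34 without mouse 1 and -0.21 without mouse 4. Itgb1, the beta chain that most integrins share, was at 606, 551, 628 and 531 CPM in stroma and 264, 260.2, 246 and 302 CPM in luminal cells (log2 -1.18 ± 0.13, adjusted p 5.33e-04). Dag1, dystroglycan, which binds laminin, was at 443, 639, 471 and 306 against 177, 207, 150.3 and 214 CPM (log2 -1.35 ± 0.20, adjusted p 0.00175; 0.0131 without mouse 1 and 0.0133 without mouse 3). Ddr2, a tyrosine kinase that fibrillar collagen turns on, was at 684, 612, 752 and 1009 against 0.0516, 0.122, 7.08 and 0.427 CPM (log2 -10.31 ± 1.36, adjusted p 0.00223; 0.0104 without mouse 1 and 0.0181 without mouse 2), and its only luminal value above 1 CPM was that of mouse 3. Itgav, the alpha chain of vitronectin receptors, was higher in luminal cells, at 203, 383, 338 and 308 against 135, 167.5, 193 and 148 CPM (log2 0.84 ± 0.14, adjusted p 0.00263; 0.0131 without mouse 2 and 0.0107 without mouse 4).

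**Figure D2:**
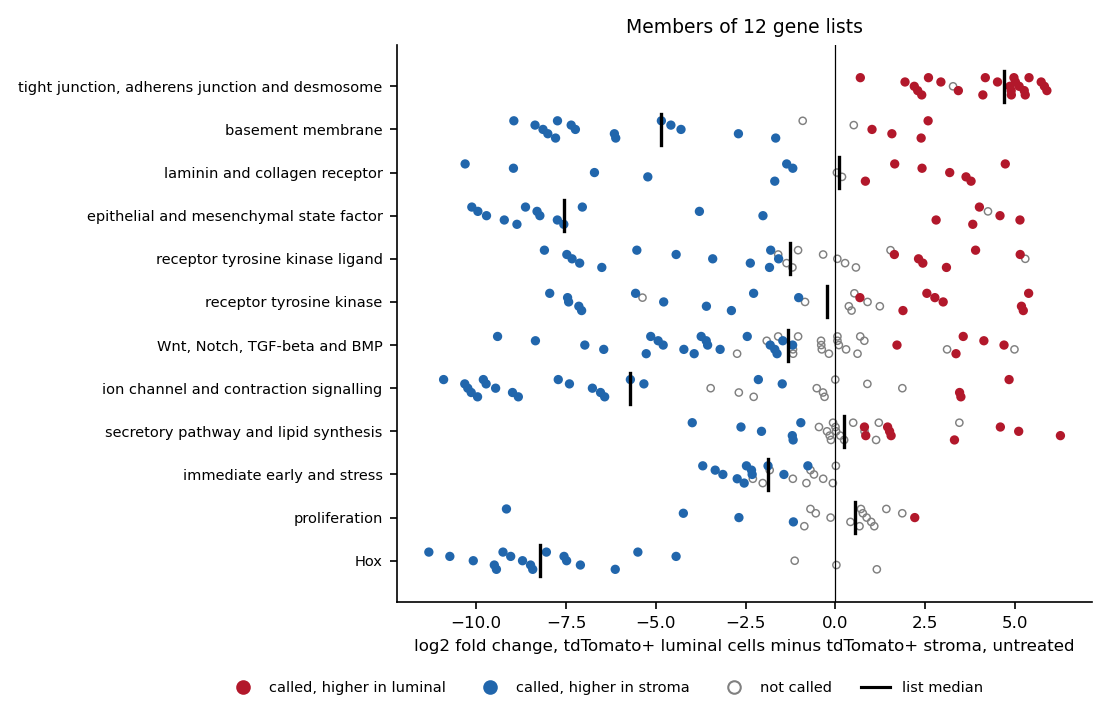
Log2 fold change, luminal minus stroma, of each tested member of 12 gene lists; filled points were called at adjusted p under 0.01 (red higher in luminal cells, blue higher in stroma), open points were not, and black bars are list medians. Junction genes lie to the right with a median of 4.69, Hox genes to the left with a median of -8.24, and matrix receptors on both sides with a median of 0.12.

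Fgfr2, the receptor for fibroblast growth factors made by mesenchyme, led the receptor tyrosine kinases of luminal cells per kilobase (123.7 CPM), at 1195, 1567, 1138 and 1211 CPM against 23.8, 72.1, 102 and 3.98 CPM in stroma (log2 5.24 ± 0.89, adjusted p 0.00555; 0.0269 without mouse 1 and 0.0294 without mouse 2). Its sister Fgfr1 was at 689, 301, 676 and 571 CPM in stroma and 319, 242, 226 and 331 CPM in luminal cells, and the stroma of mouse 2 fell within the luminal range (log2 -1.02 ± 0.21, adjusted p 0.00580; 0.0330 without mouse 1, 0.0347 without mouse 3 and 0.0183 without mouse 4). Axl, a receptor for the ligand Gas6, was almost wholly stromal, at 359, 299, 301 and 219 against 1.08, 2.31, 3.98 and 2.29 CPM (log2 -7.07 ± 0.41, adjusted p 9.75e-05). Gas6 itself was at 89.2, 46.2, 126 and 133 CPM in luminal and 110.5, 36.8, 66.9 and 41.9 CPM in stromal libraries and was not called (log2 0.58, adjusted p 0.168). Met, the receptor for hepatocyte growth factor, was at 121, 84.5, 125 and 166.5 against 78.1, 54.3, 84.3 and 72.7 CPM (log2 0.69 ± 0.14, adjusted p 0.00641) and was called in none of the fits with 1 mouse left out (0.0227 without mouse 1, 0.0190 without mouse 2, 0.0152 without mouse 3 and 0.0177 without mouse 4). Of 26 receptor tyrosine kinases, 8 were called higher in luminal cells and 11 in stroma (14.2% and 21.2% over all genes), with a median of -0.23 that turned to 0.11 with library sizes alone; without mouse 1 the counts were 4 and 7, and without mouse 2 they were 3 and 10.

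Among ligands, Areg, the EGF-like factor that luminal cells release under oestrogen, was at 384, 198, 428 and 218 CPM in luminal and 3.80, 12.4, 46.1 and 0 CPM in stromal libraries. The groups were apart in each mouse, but the stromal values spanned 0 to 46.1 CPM and Areg was not called (log2 5.29 ± 1.20, adjusted p 0.0150). Without the stromal libraries of mice 2 and 3 and without the mouse block the adjusted p was 0.00283, and without the block alone 0.0137. Tgfa, another EGF receptor ligand, was at 19.6, 24.9, 20.1 and 24.1 against 1.80, 2.53, 3.52 and 2.14 CPM (log2 3.10 ± 0.27, adjusted p 2.09e-04). Efna1, an ephrin anchored in the membrane, was at 28.2, 76.4, 52.0 and 29.0 against 4.46, 1.17, 3.72 and 2.04 CPM (log2 3.91 ± 0.54, adjusted p 0.00179). Pdgfc, a ligand of the receptor whose promoter drove the Cre, was higher in luminal cells at 25.8, 17.9, 26.0 and 26.3 against 9.88, 6.23, 9.62 and 4.37 CPM (log2 1.65 ± 0.26, adjusted p 0.00222). Vegfa, the vessel growth factor, was at 148, 657, 503 and 169 CPM in luminal cells, where mice 2 and 3 stood well above mice 1 and 4, and at 308, 199.8, 287 and 181 CPM in stroma (log2 0.27, adjusted p 0.660). Of the 30 ligands, 28 were tested, and 12 were called higher in stroma and 6 in luminal cells (21.2% and 14.2% over all genes; median -1.27), 8 and 5 without mouse 1.

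Wnt, Notch and TGF-beta genes gave 20 calls toward stroma and 5 toward luminal among 44 tested (median -1.32), against 21.2% and 14.2% of all genes tested. Wnt5a, a Wnt ligand that acts without beta-catenin, was at 64.8, 184, 189 and 90.6 CPM in luminal and 18.1, 4.87, 19.2 and 7.87 CPM in stromal libraries (log2 3.36 ± 0.57, adjusted p 0.00556; 0.0205 without mouse 4). Inhbb, a subunit of activin, was at 239, 302, 305 and 298 against 6.36, 15.5, 25.2 and 4.08 CPM (log2 4.70 ± 0.47, adjusted p 7.87e-04). Lrp5, a Wnt co-receptor, was at 204, 263, 225 and 185 against 53.1, 68.2, 79.8 and 53.9 CPM (log2 1.72 ± 0.13, adjusted p 1.39e-04). Each of these luminal genes was without overlap. Tgfbr3, a co-receptor that presents TGF-beta, was at 364, 281, 397 and 273 CPM in stroma and 8.52, 5.29, 13.7 and 9.73 CPM in luminal cells (log2 -5.27 ± 0.22, adjusted p 4.58e-05). Tgfbr2, the signalling receptor, was at 208, 239, 218 and 269 CPM in luminal and 198, 94.1, 193 and 96.2 CPM in stromal libraries and was not called (log2 0.70, adjusted p 0.0696). Its stromal libraries lay at 2 levels, with mice 1 and 3 near the luminal range. The Notch receptors differed by gene. Notch2 was at 280.4, 304, 365 and 250.2 CPM in stroma and 104, 97.5, 95.2 and 109 CPM in luminal cells (log2 -1.62 ± 0.15, adjusted p 2.46e-04). Notch1, at 225, 176, 208 and 287 CPM in luminal and 141, 238, 225 and 196 CPM in stromal libraries, was not called (log2 0.10, adjusted p 0.708).

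Slc12a2, the sodium-potassium-chloride cotransporter of secretory epithelia, was at 4460.4, 5604, 5649.8 and 1518 CPM in luminal cells, lowest in mouse 4, and at 164.5, 499.5, 647 and 215 CPM in stroma (log2 3.46 ± 0.36, adjusted p 5.52e-04). Per kilobase it stood at 395 CPM, below Krt8 with 955 CPM. Scnn1a, a subunit of the epithelial sodium channel, was at 123, 90.9, 64.0 and 104 against 1.23, 5.14, 6.84 and 1.17 CPM (log2 4.84 ± 0.70, adjusted p 0.00306; 0.0102 without mouse 1 and 0.0186 without mouse 2). Kcnn4, a calcium-gated potassium channel, was at 21.4, 4.26, 17.9 and 24.2 against 1.80, 0.361, 1.79 and 1.65 CPM (log2 3.50 ± 0.27, adjusted p 1.44e-04). These 3 were the only luminal calls among 31 tested genes of ion transport and contraction, of which 19 were called higher in stroma (14.2% and 21.2% over all genes; median -5.71; 12 without mouse 1 and 11 without the low-count filter). Atp2a2, the calcium pump of the reticulum in most cells, was not called, and its direction turned with library sizes alone (log2 -0.30, adjusted p 0.130; 0.04 with library sizes).

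The secretory pathway and lipid synthesis list gave 9 luminal and 6 stromal calls among 29 tested (14.2% and 21.2% over all genes; median 0.25), with 5 and 2 without mouse 1, 5 and 4 without mouse 2, and 6 and 3 without mouse 3. With library sizes alone the calls were 10 and 3. Scd1, a desaturase that makes monounsaturated fatty acids, was at 213, 177, 201 and 369 CPM in luminal and 129, 46.4, 95.2 and 60.1 CPM in stromal libraries (log2 1.51 ± 0.31, adjusted p 0.00821; 0.0375 without mouse 2, 0.0125 without mouse 3 and 0.0102 without mouse 4). Xdh, xanthine dehydrogenase, which coats milk fat globules during lactation, was here higher in stroma, at 167.3, 305, 295 and 382 against 40.0, 19.7, 52.1 and 109.7 CPM (log2 -2.63 ± 0.39, adjusted p 0.00269; 0.0114 without mouse 1). Elovl5, which lengthens polyunsaturated fatty acids, was at 183, 275, 252 and 204 against 15.4, 13.9, 17.0 and 13.7 CPM (log2 -3.98 ± 0.17, adjusted p 4.70e-05). Pdia4, a folding enzyme of the endoplasmic reticulum (log2 0.50, adjusted p 0.362), and Srebf2, the regulator of cholesterol genes (log2 0.02, adjusted p 0.904), were not called.

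Immediate early genes, which cells switch on within minutes of a stimulus, handling included, were high in every library. Egr1, a zinc finger factor of this class, was at 2445, 1928, 2660.3 and 2045 CPM in stroma and 528, 235, 597 and 440.5 CPM in luminal cells (log2 -2.47 ± 0.20, adjusted p 1.59e-04). Jun, a subunit of the AP-1 factor, was at 1526, 1341, 1723 and 1287 against 1499, 469, 802 and 1055 CPM with overlapping ranges and was not called (log2 -0.80, adjusted p 0.0393). Neither was its partner Fos (log2 -0.69, adjusted p 0.0431) or Hspa1b, a heat-induced chaperone (log2 -1.83, adjusted p 0.0121). The list gave 11 stromal and 0 luminal calls among 21 (21.2% and 14.2% over all genes; median -1.87; 7 stromal calls without the stromal libraries of mice 2 and 3 and the block, and 10 without the block alone), and its sum in the luminal libraries, 7880.5, 3366, 5552 and 5910.3 CPM, was lowest in mouse 2. Mcm6, a replicative helicase subunit, was the 1 luminal call of the proliferation list, at 85.4, 102, 96.3 and 68.1 against 19.8, 15.97, 23.2 and 13.7 CPM (log2 2.21 ± 0.16, adjusted p 1.14e-04). Of the D cyclins, which drive entry into the cycle, Ccnd2 was stromal, at 210.4, 219, 194 and 257 against 0.155, 0, 1.73 and 0.271 CPM (log2 -9.16 ± 0.92, adjusted p 9.17e-04). Ccnd1 was at 102, 54.0, 88.5 and 152 CPM in luminal and 36.7, 36.4, 22.9 and 9.71 CPM in stromal libraries without a call (log2 1.87, adjusted p 0.0399). Cdkn1a, the cyclin-kinase inhibitor p21, was higher in stroma (log2 -2.68, adjusted p 2.93e-04). Of 18 tested, 4 were called toward stroma, against 21.2% of all genes tested, with a median of 0.55. That median was 1.01 without mouse 2, 0.00616 without mouse 3 and -0.13 without mouse 4.

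Hox genes, which record position along the body axis, were for the most part without counts in luminal cells. Of 39 genes, 26 had no count in any luminal library and 6 in any stromal one. Hoxa3 had no luminal count and 15.4, 27.8, 13.4 and 22.2 CPM in stroma, at least 496-fold higher. Hoxc6 was at 17.5, 22.6, 14.2 and 21.5 CPM in stroma and at most 0.183 CPM in luminal cells (log2 -7.48 ± 0.52, adjusted p 1.01e-04). The anterior Hoxb genes were different. Hoxb4 was at 7.28, 8.03, 4.12 and 6.48 CPM in luminal and 22.9, 9.21, 7.23 and 18.6 CPM in stromal libraries (log2 -1.13, adjusted p 0.0234). Hoxb3 was at 9.34, 11.9, 9.40 and 17.3 against 7.69, 6.68, 4.91 and 1.94 CPM (log2 1.16, adjusted p 0.0794), and Hoxb2 at 8.83, 7.12, 9.18 and 8.69 against 7.5998, 7.67, 8.76 and 7.38 CPM (log2 0.03, adjusted p 0.924). None of the 3 was called. The other 17 of 20 tested were called higher in stroma (21.2% over all genes), with a median of -8.24, or -6.85 with the 10 genes without luminal counts at their bounds, and the count was 10 without mouse 1.

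After E+P, in 3 other mice, 6619 of 16864 genes tested (39.2%) were called between tdTomato+ luminal cells and tdTomato+ stroma. The calls of the 2 comparisons shared 4318 genes, 77.3% of the untreated and 65.2% of the E+P calls, and 4296 of them had the same direction. The difference of the differences was then tested in the 14 tdTomato+ libraries, 8 of them those of the comparison above: 214 of 18387 genes (1.16%) were called, 156 below 0, where luminal minus stroma was larger after E+P, and 58 above 0; a change in either fraction can set the sign. The luminal epithelial list summed to a mean of 318 CPM in untreated and 87.8 CPM in E+P stroma and had a median difference of -3.28, with 0 of 17 genes called. The part of luminal RNA in the untreated stroma in the count below 0 was not tested. With library sizes alone, 117 of 245 were above 0, 47.8% against 27.1%. Leaving out 1 mouse moved the count to between 49, without mouse 3 of the E+P group, and 226, without mouse 4 of the untreated group; it was 62 and 70 without mice 2 and 1 of the E+P group, and 94 and 105 without mice 1 and 3 of the untreated group. Of 19 state factors tested, 2 were called below 0 (0.848% of all genes), and of 45 Wnt, Notch and TGF-beta genes, 2 above 0 (0.315%).

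Tnfsf11, the RANK ligand that hormone-sensing cells release under progesterone, was at 141, 115 and 125 CPM in the E+P luminal libraries and at 0.877, 0, 0 and 0.620 CPM in the untreated ones. In stroma its mean was 1.89 CPM in untreated and 0.0840 CPM in E+P mice (log2 difference -12.78 ± 0.68, adjusted p 7.94e-05). Defb1, an antibacterial peptide, was at 358, 429 and 565 CPM after E+P against 24.5, 0, 3.11 and 0.0775 CPM without treatment (log2 difference -9.42 ± 0.71, adjusted p 4.69e-04; adjusted p 0.0213 without mouse 1 of the untreated group). Plekhg4, a guanine nucleotide exchange factor, was at 134, 6.28 and 4.14 against 0.310, 0.426, 0.361 and 0.465 CPM (log2 difference -10.96 ± 0.73, adjusted p 1.36e-04; 0.0328 without mouse 1 of the E+P group). Adh7, an alcohol dehydrogenase that handles retinol, was at 23.3, 15.9 and 33.1 against 0.206, 0.0608, 0.145 and 0 CPM (log2 difference -9.37 ± 1.01, adjusted p 0.00140; 0.0156 without mouse 3 of the E+P group). Sprr2g, a protein of the cornified envelope, had no count in the untreated luminal libraries and 32.8, 78.7 and 65.4 CPM in the E+P ones; its adjusted p was 0.00842, and it was called in 2 of 7 fits with 1 mouse left out. For all 5 the luminal level rose, and the lowest E+P luminal value lay above the highest untreated one.

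Among the genes above 0, Nckap5, a protein named for its binding to the adaptor Nck, was at 130.1, 179.8, 129.9 and 204 CPM in untreated and 11.9, 8.89 and 7.75 CPM in E+P luminal cells and was alike in the 2 stromal groups (log2 difference 4.18 ± 0.25, adjusted p 1.08e-04), and it was called without each of the 7 mice. Its untreated difference was small (log2 0.70 ± 0.13, adjusted p 0.00414) and was lost without any 1 mouse (0.0114 without mouse 1, 0.0152 without mouse 2, 0.0155 without mouse 3 and 0.0150 without mouse 4). Esrrg, an orphan nuclear receptor, was at 30.0, 21.8, 27.9 and 31.2 against 0.641, 2.09 and 1.62 CPM in luminal cells (log2 difference 5.17 ± 0.65, adjusted p 0.00362), and Zfp979, a zinc finger protein, at 10.1, 12.5, 12.4 and 15.3 CPM against no count after E+P, so that the fitted size depends on the prior count (log2 difference 8.88 ± 0.95, adjusted p 0.00380). Colgalt2, which adds galactose to collagen, was at 2.99, 20.3, 8.17 and 16.1 against 0.240, 0.855 and 0.190 CPM (log2 difference 5.10 ± 0.65, adjusted p 0.00366), and Pgm5, an adhesion protein related to phosphoglucomutase, at 3.46, 1.64, 2.82 and 2.91 against 0.1602, 0.128 and 0 CPM (log2 difference 4.97 ± 0.66, adjusted p 0.00420). In untreated mice Colgalt2 was not called (log2 0.36, adjusted p 0.455), and Pgm5 was lower in luminal cells than in stroma, where its mean was 20.1 CPM. The called difference from E+P was lost in 4 of the 5 genes without 3 to 5 of the 7 mice, with adjusted p up to 0.0208 for Zfp979, 0.0247 for Esrrg, 0.0222 for Colgalt2 and 0.0259 for Pgm5. The shortfall of luminal cells in Dcn narrowed after E+P, from 4.59, 3.53, 8.38 and 2.37 CPM in untreated to 21.6, 33.6 and 51.4 CPM in E+P luminal cells, while its stromal mean went from 489.9 to 214 CPM (log2 difference -4.04 ± 0.35, adjusted p 6.34e-04). That in Lpl went from 1.24, 0.548, 1.73 and 2.56 to 53.8, 15.5 and 15.1 CPM (log2 difference -4.87 ± 0.60, adjusted p 0.00522), with stromal means of 123 and 68.5 CPM and a call that was lost without 5 of the 7 mice (adjusted p up to 0.0267).

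In GFP+ cells of the same 4 mice the luminal-stromal difference was often another one. The difference of the luminal-stromal differences, tdTomato+ minus GFP+, was called for 3090 of 17364 genes (17.8%), 1435 above 0 (8.26%) and 1655 below (9.53%); the 8 tdTomato+ libraries are those used above. With library sizes alone, 37.8% of the calls were above 0 against 46.4% with TMM, and the count was 1629, 1804, 1952 and 1761 without mice 1 to 4. In GFP+ stroma the luminal epithelial list summed to a mean of 55.5 CPM, against 318 CPM in tdTomato+ stroma, and its median difference was -2.81; the part of luminal RNA was not tested here either. Of the 14 smooth muscle genes, 11 were called with a lower difference in tdTomato+ cells. So were 6 of the 15 pericyte and 17 of the 19 skeletal muscle genes, against 9.53% of all genes tested. The medians of these lists, over called and uncalled members, were -5.80, -4.65 and -10.01, against -0.08 over all genes. Myh11 was at 26.6, 44.2, 24.1 and 14.03 CPM in GFP+ stroma and 3.10, 3.12, 5.71 and 10.5 CPM in GFP+ luminal cells, far below its tdTomato+ stroma (log2 difference -6.70 ± 1.15, adjusted p 0.00120; 0.0106 without mouse 1). Notch3 changed sides: 30.9, 20.5, 30.0 and 18.1 CPM in GFP+ stroma lay below the 144, 165.3, 146 and 170.7 CPM of GFP+ luminal cells (log2 difference -5.59 ± 0.29, adjusted p 1.86e-07). The muscle genes Pgam2, a glycolytic enzyme (log2 difference -15.51, adjusted p 0.00358), Tnnc2, troponin C (log2 difference -15.25, adjusted p 0.00255), Ckm, the creatine kinase of muscle (log2 difference -14.28, adjusted p 0.00115), Mypn, which binds titin (log2 difference -14.13, adjusted p 0.00299), and Mybpc2, a myosin-binding protein (log2 difference -14.19, adjusted p 4.24e-05), gave the lowest values. Their means in GFP+ stroma were 0 to 0.0305 CPM, so the fitted sizes depend on the prior count. Of these 5, only Mybpc2 was called without each mouse, and Pgam2 (up to 0.0224), Tnnc2 (0.304), Ckm (0.0407) and Mypn (0.0492) were not.

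The 5 genes picked for the largest values above 0 were higher in GFP+ than in tdTomato+ stroma. Il1rl1, the receptor for interleukin 33, was at 593, 283, 883 and 531 CPM in GFP+ stroma and 32.0, 1.71, 57.5 and 4.56 CPM in tdTomato+ stroma, with luminal values of at most 4.12 CPM in tdTomato+ cells (log2 difference 6.78 ± 1.03, adjusted p 5.61e-04), and was called without each mouse. Hc, complement component 5, was at 277, 202, 392 and 406 CPM in GFP+ stroma and 1.99, 5.60, 42.7 and 2.91 CPM in tdTomato+ stroma, and its luminal means were 28.2 CPM in tdTomato+ and 4.45 CPM in GFP+ cells (log2 difference 7.94 ± 1.25, adjusted p 6.92e-04; 0.0149 without mouse 2). Lrrc15, a matrix-binding membrane protein, was at 28.005, 26.3, 79.5 and 68.6 against 2.47, 10.9, 8.89 and 3.98 CPM (log2 difference 6.42 ± 1.36, adjusted p 0.00377; up to 0.0443 without mouse 1 or 3). Adora2b, an adenosine receptor, was at 26.1, 33.1, 35.0 and 28.2 against 2.75, 0.361, 6.84 and 0.388 CPM (log2 difference 6.82 ± 1.41, adjusted p 0.00313). Adora2b and Crabp1, a carrier of retinoic acid (log2 difference 7.92 ± 1.91, adjusted p 0.00678), lost the call without any 1 mouse, with adjusted p up to 0.0233 and 0.0654. Of 46 Wnt, Notch and TGF-beta genes, 7 were called above 0 and 10 below, against 8.26% and 9.53% of all genes tested. Tgfbr2 was at 689.7, 798, 854 and 641 CPM in GFP+ stroma and 133, 110.0, 150.5 and 114 CPM in GFP+ luminal cells (log2 difference 3.25 ± 0.29, adjusted p 9.36e-06), and Dcn at 6259, 6812, 6427 and 5543 CPM in GFP+ stroma (log2 difference 3.03 ± 0.73, adjusted p 0.00861); the call of Dcn was lost without any 1 mouse (0.0127 to 0.0541). Wnt5a, a luminal gene among tdTomato+ cells, was at 54.2, 75.4, 46.2 and 47.5 CPM in GFP+ stroma and 10.8, 11.2, 78.2 and 6.52 CPM in GFP+ luminal cells (log2 difference 4.99 ± 0.88, adjusted p 0.00145; 0.0178 without mouse 2 and 0.0190 without mouse 4). Lama5 showed the reverse: it was at 2.95, 12.2, 9.69 and 3.76 CPM in GFP+ stroma and 348, 252, 519.7 and 272 CPM in GFP+ luminal cells, a larger excess than among tdTomato+ cells (log2 difference -4.68 ± 0.46, adjusted p 2.30e-05). Kit and Mfge8, both higher in GFP+ luminal cells (761, 1154, 791 and 915 and 1195, 1168, 869.7 and 1508 CPM), also had larger differences among GFP+ cells (Kit, log2 difference -4.41, adjusted p 0.00141, with 0.0120 without mouse 3 and 0.0129 without mouse 4, and Mfge8, log2 difference -2.75, adjusted p 4.77e-04).

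**Figure D3:**
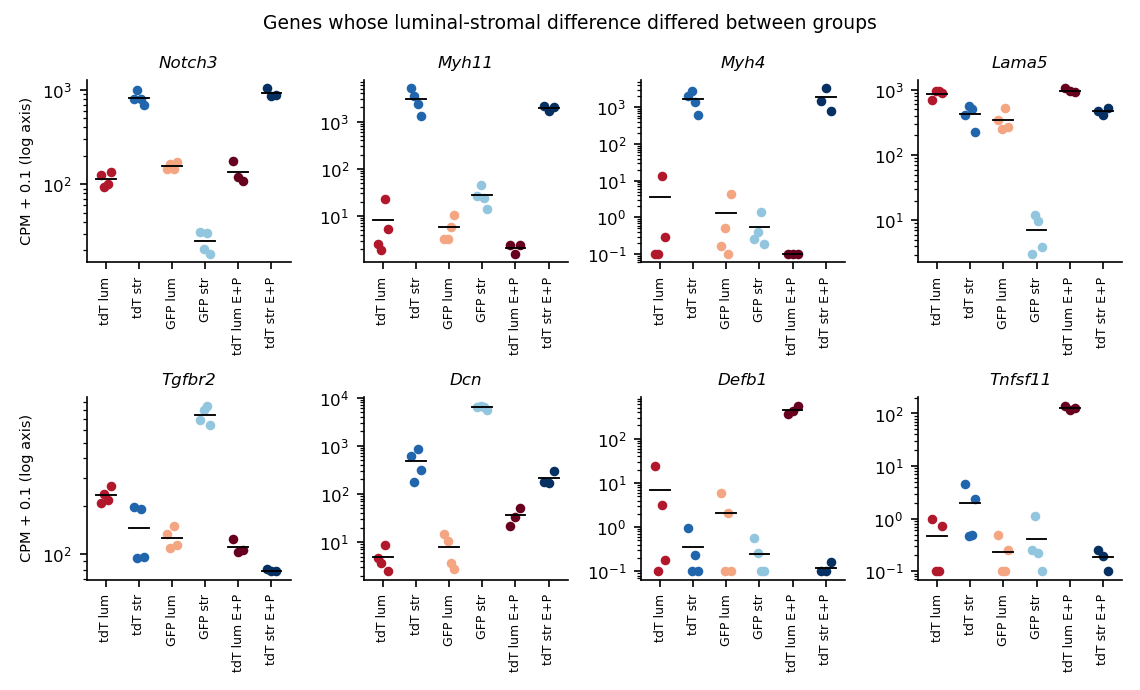
Levels of 8 genes (CPM with 0.1 added, log axis) in each library of tdTomato+ (tdT) and GFP+ luminal (lum) and stromal (str) cells of untreated mice and of tdTomato+ cells after E+P; points are libraries and bars are means. Notch3, Myh11 and Myh4 are high in tdTomato+ stroma and at most 27.2 CPM on average in GFP+ stroma, Tgfbr2 and Dcn are highest in GFP+ stroma, and Defb1 and Tnfsf11 are highest in E+P luminal cells, at a mean of 451 and 127 CPM.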

How the data were processed

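Bulk RNA-seq of sorted mouse mammary cells gave 28 libraries, and 8 of them made up the comparison: luminal and stromal tdTomato+ cells of 4 untreated mice, paired within mouse. Per the submitters' notes, reads had been aligned to GRCm38.p5 and counted per gene with STAR 2.5.2a, and the counts were deposited by the authors without scaling. Gene symbols, lengths and positions came from the GENCODE M21 annotation of GRCm38, which held 50376 of the 50600 gene IDs. CPM used TMM factors over all 28 libraries. Totals of the 8 libraries of the comparison lay between 10231034 and 22643378 counts, and those of all 28 between 8623383 and 24583803. A floor of 3 counts and 95% counting intervals were used, which cover counting error only.

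Fits used edgeR 4.0.16 in R 4.3.3 (filterByExpr, TMM, robust quasi-likelihood, two-sided) with the mouse as a factor, and Benjamini-Hochberg adjusted p under 0.01. The contrast was luminal minus stroma. The same contrast was fitted in 3 E+P mice, and its difference was tested between untreated and E+P tdTomato+ cells and between tdTomato+ and GFP+ cells. Alternatives used limma 3.58.1 and DESeq2 1.42.0; tables and figures used Python 3.11.15, pandas 2.3.3, SciPy 1.17.1 and matplotlib 3.10.9. The fit without the stromal libraries of mice 2 and 3 and that without the luminal library of mouse 3 were chosen after the data had been seen.

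The mice, the comparison and the gene lists were chosen with earlier results of these data known. Named genes followed a rule fixed before the values were computed here: the 10 called genes in each direction with the largest change that had a mean of 10 CPM or more on the higher side and the same direction in 4 of 4 mice, the 4 members of each list with the highest mean CPM, up to 3 members called against the direction of most of their list, and the 5 genes in each direction for each of the 2 tests of a difference. Genes without a symbol of their own were counted and not named, and not every gene picked by the rule is printed. Genes outside the rule, such as the exceptions in counts of 5 or fewer, Myl9, Krt14, Pecam1, Itga8, Smtn, Dsc2, Dpp4, Hoxb2, Adipoq, Wap and Adgre1, were named after their values were seen. Promoter windows of 250 bases came from RefSeq.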

Additional observations from a re-analysis of the deposited data

Results flagged for a closer look

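In 324 groups of 4 libraries (162 named genes, luminal and stromal), the highest or lowest library was set against the other 3. Dixon's 95% critical value flags about 1 in 20 groups of independent, normally distributed values. The groups here come from the same libraries and several hold values at or near 0, so that rate does not carry over. In 39 groups the highest or lowest library's gap to the nearest value, as a share of the group's range, exceeded this value. Of these, 21 were in the luminal library of mouse 3, which stood above the other luminal libraries in genes of stroma, with CPM values of Acta1 11.2, Tnnt3 6.36, Rgs5 19.2, Procr 12.9, Abcc9 9.03, Myh11 22.3, Synpo2 13.5, Col3a1 29.5, Col1a1 16.1, Cd36 2.31, Pax7 0.651, Fgfr4 1.01, Myf5 0.940, Myh4 13.6, Ddr2 7.08, Vim 10.3, Zeb2 6.79, Prrx1 4.26, Ccnd2 1.73, Tnnc2 6.00 and Ckm 3.61. The luminal library of mouse 4 was the highest for Btn1a1 89.5, Ttll10 23.6 and Vwf 129 CPM. That of mouse 1 was the highest for Fos 1285 and Defb1 24.5 CPM and the lowest for Inhbb 239 CPM. In mouse 2, luminal Fgfr2 1567 CPM was the highest of its group and luminal Pdgfc 17.9 CPM the lowest. Among stromal libraries, mouse 3 was the highest for Ltf 7.90, R3hdml 0.996, Hc 42.7 and Crabp1 0.265 CPM, and mouse 1 for Sprr2g 0.760 and Defb1 0.855 CPM. Mouse 1 was the lowest for Eng 50.5 CPM and mouse 4 for Col4a5 13.2 CPM. In mouse 2, stromal Esrrg 6.14 CPM was the highest and stromal Kcnn4 0.361 CPM the lowest. The causes were not tested.

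The luminal-stromal difference was tested between groups of mice or reporters for each named gene. For each test, 5 genes in each direction had been named because they passed that same test, so their calls were fixed in advance. Myl9, Itga8 and Pecam1 were named after their values were seen. The counts below are therefore no result about named genes. Over all genes tested, 1.16% were called in the test against E+P and 17.8% in that against GFP+ cells. Between untreated and E+P tdTomato+ cells it differed in 13 genes at an adjusted p under 0.01, with log2 differences (untreated minus E+P) of Dcn -4.04, Lpl -4.87, Lamc1 -2.19, Zfp979 8.88, Esrrg 5.17, Colgalt2 5.10, Pgm5 4.97, Nckap5 4.18, Sprr2g -17.61, Tnfsf11 -12.78, Plekhg4 -10.96, Defb1 -9.42 and Adh7 -9.37. Between tdTomato+ and GFP+ cells it differed in 47 genes, with log2 differences (tdTomato+ minus GFP+) of Acta1 -13.94, Tmem182 -12.05, Mfge8 -2.75, Kit -4.41, Notch3 -5.59, Myh11 -6.70, Synpo2 -5.69, Cald1 -2.63, Tpm2 -7.26, Dcn 3.03, Lpl 1.68, Flt1 -3.64, Esam -7.44, Pmp22 -2.17, Ncam1 -6.65, Sox10 -4.80, Pax7 -12.62, Chrdl2 -9.82, Ttn -10.01, Myh4 -12.49, Ptprc -6.65, Jup -1.09, Lama5 -4.68, Lamc1 2.05, Col4a6 -3.36, Itgav 1.36, Notch1 -2.14, Tgfbr2 3.25, Wnt5a 4.99, Kcnn4 -4.85, Elovl5 -2.13, Ccnd1 -3.96, Zfp979 1.69, Pgm5 -7.75, Hc 7.94, Crabp1 7.92, Adora2b 6.82, Il1rl1 6.78, Lrrc15 6.42, Pgam2 -15.51, Tnnc2 -15.25, Ckm -14.28, Mybpc2 -14.19, Mypn -14.13, Myl9 -3.30, Itga8 -2.93 and Pecam1 -4.65. With 1 mouse left out, 3 of the 13 and 18 of the 47 were called in each fit. Where a group held few or no counts, as for the muscle genes in GFP+ stroma and Sprr2g in untreated cells, the fitted size depends on the prior count.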

How the results depend on the processing

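The untreated comparison gave 5584 calls. It gave 9490 with all 28 libraries in 1 fit, a fit with more libraries behind its error, and 2956 when the change had to be beyond 2-fold. Leaving out 1 mouse gave 3332 (mouse 1) to 4316 (mouse 4), with fewer mice in the fit. The other settings, among them DESeq2 size factors (5591), library sizes alone (6206), limma-voom (6723), the DESeq2 Wald test (7581), no low-count filter (5648, with 4997 of the 5584 shared) and no replicate block (6561), stayed within 1.5 times. Without the stromal libraries of mice 2 and 3 and without the block, 5520 genes were called, 4637 of them shared with the 5584. Without the luminal library of mouse 3 there were 5783, with 5115 shared. These 2 settings were added after the data had been seen. The mouse block was kept although the measure of pairing, a correlation across genes within a mouse, was only 0.049 to 0.090. Its mean between mice was -0.022. This measure is not the r of log2 levels, which was 0.525 to 0.682 between luminal and stromal libraries.

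The test between untreated and E+P cells gave 214 calls. Other settings gave 456 without the replicate block, 485 with limma-voom, 404 without a low-count filter and 763 at an adjusted p under 0.05. Leaving out 1 mouse gave 49 to 226. The test between tdTomato+ and GFP+ cells gave 3090, with 5288 at an adjusted p under 0.05 and 1629 to 1952 with 1 mouse left out. The causes of these changes in count, here and in the untreated comparison, were not tested.

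The log2 fold changes of named genes were recomputed under each other setting. Of the values obtained, 2435 kept their direction and side of the threshold, 200 lost and 84 gained a call, and 10 changed direction, all in genes that were not called. Leaving out 1 mouse moved Mfge8 between -0.0358 and 0.63, Vegfa between -0.18 and 0.74, Notch1 between -0.0724 and 0.30, Srebf2 between -0.0776 and 0.23, Colgalt2 between -0.0141 and 0.67 and Hoxb2 between -0.00778 and 0.12. Krt14 moved between 0.00873 and 2.15. It was -0.15 without the stromal libraries of mice 2 and 3 and the block, and 0.23 without the block alone. Atp2a2 was 0.0409 with library sizes alone. The cause was not tested. Of the losses, 41 came without mouse 1, 43 without mouse 2 and 42 without the low-count filter. Called differences between groups kept their call in 443 refits and lost it in 136. With library sizes alone, 12 of 50 list sums moved by more than the spread between replicates. Depth limited genes near the floor: those without luminal counts allow only bounds.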
